A study of Homo sapiens with 45 samples.

Results

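In HEK293T cells treated with the solvent DMSO, 940 of 17440 CTCF regions (5.39%, 95% Wilson interval 5.06 to 5.73%) carried a region of the NuRD subunit MBD3 and none of MBD2 or TET1. They were chosen from the deposited DMSO peak lists: a distinct CTCF region was taken when it overlapped a DMSO MBD3 region by 1 bp or more and no DMSO MBD2 or TET1 region. The lists that chose them are the CTCF, MBD2, MBD3 and TET1 lists in DMSO, so their values in those lists are given as a description, with no test. "Only" means that the peak caller listed no MBD2 or TET1 region there, which is not a measurement that either protein was absent.

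The series holds ChIP-seq libraries of HEK293T, a human embryonic kidney cell line, treated for 72 h with 30 µM BPK25, with 0.5 mM IAA or with DMSO. Each treatment has 3 libraries for each of the antibodies to CTCF, MBD2, MBD3 and TET1 and 3 input libraries, 45 in all. The labels do not name the protein on which IAA acts, and they mention edited derivatives of the line without saying which libraries came from them. The 12 deposited peak lists each combine replicates 1 to 3, so every treatment and antibody has 1 value per region and no difference below could be tested over replicates. The intervals cover counting over regions, not the spread between cultures.

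CTCF is a zinc finger protein that binds DNA at insulators and at the anchors of chromatin loops. NuRD is a nucleosome remodelling and histone deacetylase complex that holds either MBD2 or MBD3. MBD2 binds methylated CpG, whereas mammalian MBD3 binds methylated DNA weakly or not at all. TET1 oxidises methylated cytosine. A CTCF region with MBD3 and no MBD2 is therefore a place where one of the alternative NuRD subunits was listed and its counterpart was not.

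The 940 MBD3-only regions made up 11.6% (10.9 to 12.3%) of the 8099 CTCF regions with MBD3. The other CTCF regions with MBD3 comprised 2847 with MBD2 as well, 296 with TET1 as well and 4016 with all 3 partners. A further 4083 CTCF regions had no partner, and 3660 had MBD2 as the one partner. Each of the 940 met a different MBD3 region, 9.27% of the 10137 in that list. Of these 940 MBD3 regions, 36.9% fell in the lowest quartile of fold of the MBD3 list, 30.1% in the second, 22.1% in the third and 10.9% in the highest. Among these MBD3 regions, 1 met a TET1 region outside the CTCF region and 0 met an MBD2 region.

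The rule has an edge at 1 bp, and few regions lay close to it. The smallest overlap was 7 bp, and 1 of the 940 overlapped its MBD3 region by under 50 bp. On the other side, 2 of the 4083 regions without a partner had an MBD3 region within 50 bp, and 41 had one within 500 bp. Among regions on chromosomes 1 to 22 and X with a CTCF −log10 q of 5 or more, the smallest overlaps were 67 bp at chr20:48795767-48795979 and 112 bp at chr11:120983339-120983535 (hg19). Their CTCF folds were 4.49 and 3.37. Just outside, chr9:126889152-126889455 lay 122 bp from an MBD3 region and had a CTCF fold of 5.47. The next, chr9:117444331-117444619, lay 227 bp away and had a CTCF fold of 3.17. The nearest MBD2 region to any of the 940 was 221 bp away and the nearest TET1 region 81 bp away. An MBD2 region lay within 500 bp of 13 of them and a TET1 region within 500 bp of 16.

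CTCF enrichment at the MBD3-only regions lay between that of CTCF regions without a partner and that of regions with more partners. The fold given by the authors' caller is the pileup of fragments at the summit over the local background. Its median was 3.98 (quartiles 3.23 and 4.80, n = 940) at the MBD3-only regions, against 3.64 at regions without a partner. It was 4.60 at regions with MBD2 and MBD3, 5.31 at regions with all 3 partners and 4.31 over all 17440 CTCF regions. The MBD3-only regions reached a highest CTCF fold of 7.74, against 24.96 at regions with all 3 partners. A CTCF fold of 5 or more was listed for 19.7% of the MBD3-only regions, 37.4% of those with MBD2 and MBD3 and 57.3% of those with all 3. The pileup at the summit had medians of 35 fragments at the MBD3-only regions, 29 without a partner, 42 with MBD2 and MBD3 and 52 with all 3. The order of these classes was the same as for fold. The median pileup was 37 with MBD2 as the one partner and 31 with TET1 as the one partner. The latter lies under the MBD3-only value, unlike the fold.

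Among the classes with MBD3, the MBD3-only class had the lowest median MBD3 enrichment. The median MBD3 fold was 3.47 (quartiles 2.85 and 4.01), against 3.87 at regions with MBD2 and MBD3, 3.67 at regions with MBD3 and TET1 and 4.33 at regions with all 3 partners. An MBD3 fold of 5 or more was listed for 6.38% of the MBD3-only regions, 14.3% of those with MBD2 and MBD3 and 30.5% of those with all 3. At like CTCF enrichment the difference from the regions with MBD2 and MBD3 was smaller. In the 4 quartiles of CTCF fold, low to high, the median MBD3 fold was 2.81, 3.40, 3.85 and 4.49 at the MBD3-only regions, against 2.99, 3.53, 3.91 and 4.64 at regions with MBD2 and MBD3 and 2.72, 3.53, 4.07 and 5.07 at regions with all 3 partners. The median ratio of MBD3 to CTCF pileup, each over the lowest background of its list, was 0.876 at the MBD3-only regions. It was 0.866 with MBD3 and TET1, 0.839 with MBD2 and MBD3 and 0.814 with all 3. The intervals of the medians overlap between the MBD3-only regions (0.860 to 0.889) and those with MBD3 and TET1 (0.837 to 0.891). These ratios use the same lists as the rule and are given as a description.

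**Figure D1:**
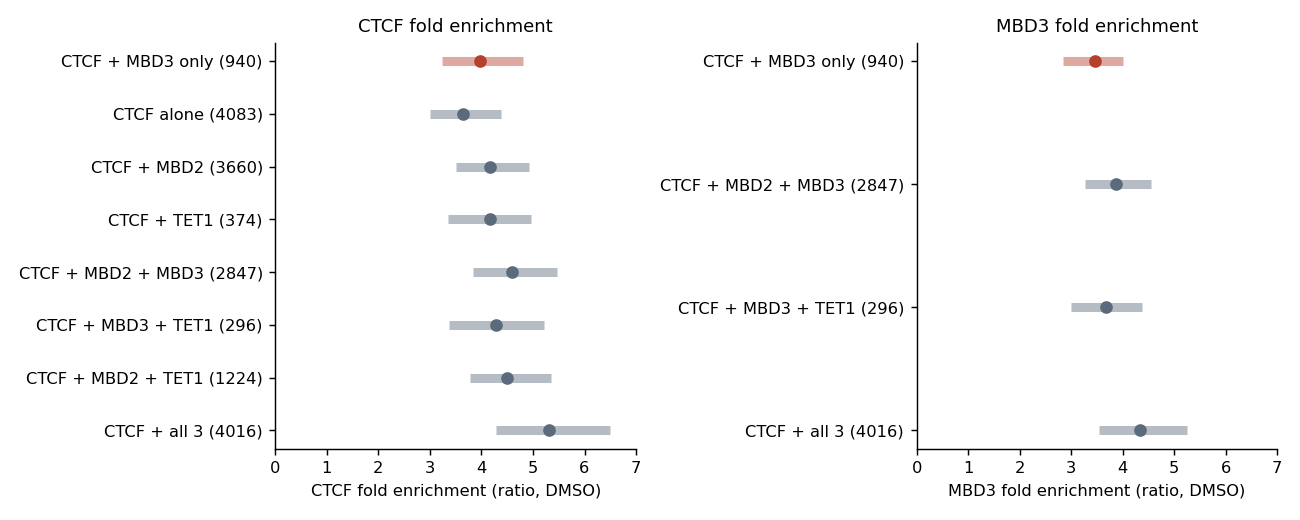
Fold enrichment in DMSO by class of CTCF region, CTCF on the left and MBD3 on the right (linear ratio on each horizontal axis, number of regions in parentheses). Points are medians and bars run from the lower to the upper quartile. The MBD3-only regions have a median CTCF fold of 3.98 against 5.31 with all 3 partners, and a median MBD3 fold of 3.47 against 4.33.

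The 6 MBD3-only regions of highest CTCF fold each had 1 summit and were 198 to 286 bp wide, and each lay more than 6 kb from any MBD2 or TET1 region. The highest CTCF fold was at chr1:8091337-8091622, with a CTCF fold of 7.74 and a pileup of 50 fragments. Its MBD3 fold was 5.51, with a pileup of 38, and the summits lay 5 bp apart. The region with the highest MBD3 fold was chr1:147994248-147994445, with an MBD3 fold of 8.57 and a CTCF fold of 7.48. There the MBD3 pileup of 48 exceeded the CTCF pileup of 39. At chr6:55106068-55106315, 172 kb from the nearest MBD2 region, the CTCF fold was also 7.48 and the MBD3 fold 6.29. At chr11:61715170-61715428 the CTCF fold was 7.23 and the MBD3 fold 4.64. At chr19:49291444-49291691 they were 7.17 and 6.76. A region on chromosome 8 had a CTCF fold of 7.67 and an MBD3 fold of 6.29.

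Some regions were high in MBD3 and nearer the middle of the class in CTCF. At chr6:119215176-119215444 the MBD3 fold was 6.62 with a pileup of 47, while the CTCF fold was 4.53 with a pileup of 30. At chr6:9540858-9541052 the MBD3 fold was 6.31 with a pileup of 38, while the CTCF fold was 3.66 with a pileup of 23. Both lay more than 100 kb from an MBD2 region.

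The share of CTCF regions that were MBD3-only fell with CTCF enrichment. It was 7.31% (6.58 to 8.12%) of the 4363 regions in the lowest quartile of CTCF fold, 5.76% in the second, 5.53% in the third and 2.96% in the highest. Among regions with a local background up to 3 times the lowest of the list, the shares were 6.41% (5.63 to 7.28%), 6.13%, 5.73% (5.06 to 6.48%) and 3.10% (2.62 to 3.68%). There the intervals overlap in all but the highest quartile. A higher background was found at 100 of the 319 MBD3-only regions of the lowest quartile. As a share of the CTCF regions with MBD3, the same quartiles held 25.4%, 15.1%, 11.5% and 4.19% MBD3-only regions. Strong CTCF regions with MBD3 thus rarely had it without MBD2 or TET1.

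**Figure D2:**
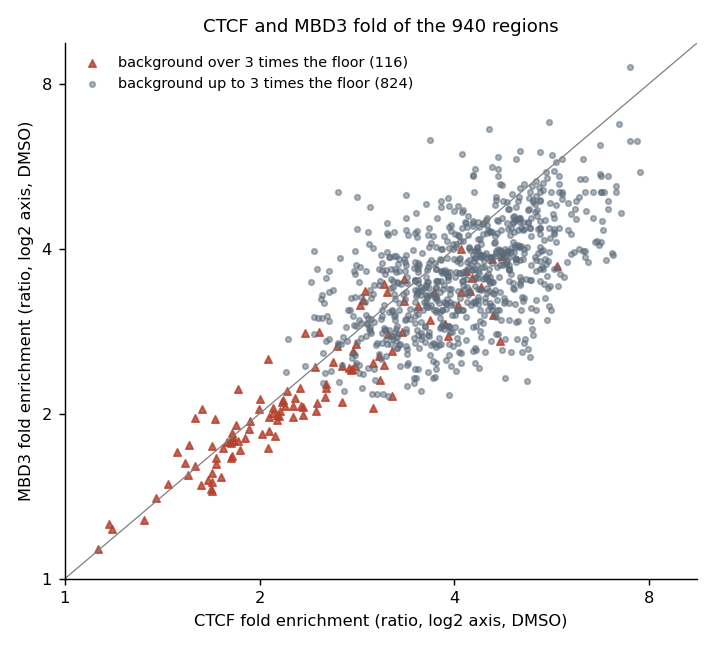
CTCF fold (horizontal) against MBD3 fold (vertical) of the 940 MBD3-only regions in DMSO, both as ratios on log2 axes, with the line of equal folds. Triangles are the 116 regions with a local background over 3 times the lowest of the CTCF list and circles the other 824. The triangles lie close to the line at low folds, and the circles spread around CTCF folds of 4.15 and MBD3 folds of 3.59.

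CTCF and MBD3 fold moved together across the 940 regions, with a Spearman correlation of 0.660, given as a description across regions that share their libraries. Both values rest on a local background that was nearly common to the lists (Spearman correlation of the backgrounds 0.972), so the folds are not separate measurements. The correlation was 0.552 over the 824 regions with a background up to 3 times the lowest in the CTCF list, and 0.933 over the 116 with a higher one. It was 0.635 at regions with MBD2 and MBD3.

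The CTCF and MBD3 summits of the MBD3-only regions lay close together, with a median distance of 16 bp (quartiles 7 and 32). The median was 12 bp at regions with MBD2 and MBD3 and 10 bp at regions with all 3 partners. Summits lay within 50 bp at 86.9% (84.6 to 88.9%) of the MBD3-only regions, 94.9% (94.0 to 95.6%) of those with MBD2 and MBD3 and 94.2% of those with all 3. They lay within 10 bp at 36.8%, 44.5% and 51.7% of the same classes. At the 296 regions with MBD3 and TET1 the median distance was 12 bp. Summits there lay within 50 bp at 90.2% (86.3 to 93.1%) and within 10 bp at 44.6% (39.0 to 50.3%). Both intervals overlap those of the MBD3-only regions (33.8 to 39.9% within 10 bp). The MBD3 region covered at least 50% of the CTCF region at 96.7% of the MBD3-only regions, and the median share covered was 84.7% (quartiles 75.0 and 93.4%).

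**Figure D3:**
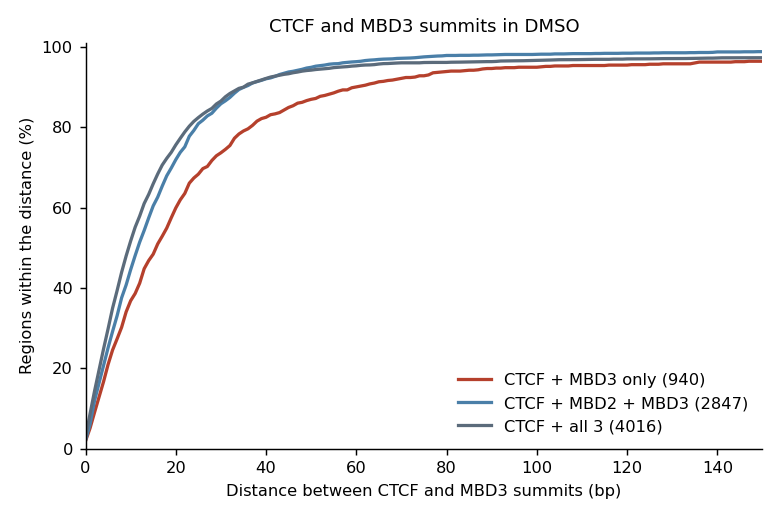
Cumulative share of regions (vertical, %) whose CTCF and MBD3 summits lie within a given distance (horizontal, bp) in DMSO, for 3 classes of CTCF region. The curve of the MBD3-only regions runs below the others, with 86.9% within 50 bp against 94.9% with MBD2 and MBD3. Regions with MBD3 and TET1, at 90.2% within 50 bp, are not drawn.

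At low background, the smaller share within 50 bp was mainly found where MBD3 enrichment was low, but the medians differed at high enrichment too. Regions with MBD3 and TET1 were not split by MBD3 fold. Among regions with a background up to 3 times the lowest, the lowest quartile of MBD3 fold had summits within 50 bp at 75.0% (70.3 to 79.2%) of 360 MBD3-only regions. The value was 86.9% (84.2 to 89.1%) of 723 regions with MBD2 and MBD3 and 79.9% (76.4 to 83.0%) of 577 with all 3 partners. In the second quartile the shares were 94.9%, 96.4% and 94.7%, and in the highest 98.5%, 99.8% and 98.6%. In the lowest quartile the interval of the MBD3-only regions lay under that with MBD2 and MBD3 and overlapped that with all 3 partners. Beyond the lowest quartile the intervals of the MBD3-only regions overlapped those of both other classes. The median distance in the lowest quartile was 23 bp, against 18 bp with MBD2 and MBD3 and 22 bp with all 3. It was 13.5 bp against 10 and 10 bp in the third, and 13 bp against 9 and 8 bp in the highest. At raised background, summits lay within 50 bp at 87.9% (80.8 to 92.7%), against 96.5% (93.7 to 98.1%) with MBD2 and MBD3. The medians there were 8 and 10 bp.

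Most MBD3-only regions lay more than 10 kb from the partners they lacked. The nearest MBD2 region was a median of 40.6 kb away and the nearest TET1 region 93.2 kb, against 46.0 and 112 kb at CTCF regions without a partner. MBD2 and TET1 were both more than 1 kb away at 894 of the 940. An MBD2 region lay within 10 kb of 24.8% (22.1 to 27.6%) of the MBD3-only regions, against 18.2% (17.1 to 19.4%) of the CTCF regions without a partner. Among regions of low background, the same shares were 19.2% and 16.9%, and their intervals overlap. A TET1 region lay within 10 kb of 15.9% (13.7 to 18.3%) of the MBD3-only regions, against 9.89% (9.02 to 10.8%) without a partner. At low background these TET1 shares were 10.2% (8.31 to 12.4%) and 8.71% (7.86 to 9.64%), with overlapping intervals. The median distance to MBD2 was 47.9 kb at the 824 MBD3-only regions of low background, against 47.5 kb at the regions of low background without a partner, and 5.53 kb at the 116 MBD3-only regions of raised background.

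Some MBD3-only regions lay where the local background itself was high. The background was recovered from the deposited fold and p-value of each region, and its smallest value in the DMSO CTCF list, 4.35 fragments, is called the floor. A background over 3 times the floor was found at 116 MBD3-only regions (12.3%, 10.4 to 14.6%), against 6.34% of regions without a partner, 10.2% with MBD2 and MBD3, 14.2% with MBD3 and TET1 and 16.8% with all 3. The share over all CTCF regions, 10.6%, lies within the interval of the MBD3-only regions. A background over 10 times the floor, a limit chosen after the data were seen, was found at 59 of the 940 (6.28%, 4.90 to 8.01%), against 0.833% of regions without a partner, 1.09% with MBD2 and MBD3, 3.34% with all 3 and 1.64% of all CTCF regions. With MBD2 as the one partner it was 0.164% (0.0752 to 0.357%), 6 of 3660 regions. With MBD3 and TET1 it was 6.42% (4.15 to 9.81%) of 296 regions, so the MBD3-only regions share this with that class. The 59 regions were 20.6% of all 286 CTCF regions with such a background.

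**Figure D4:**
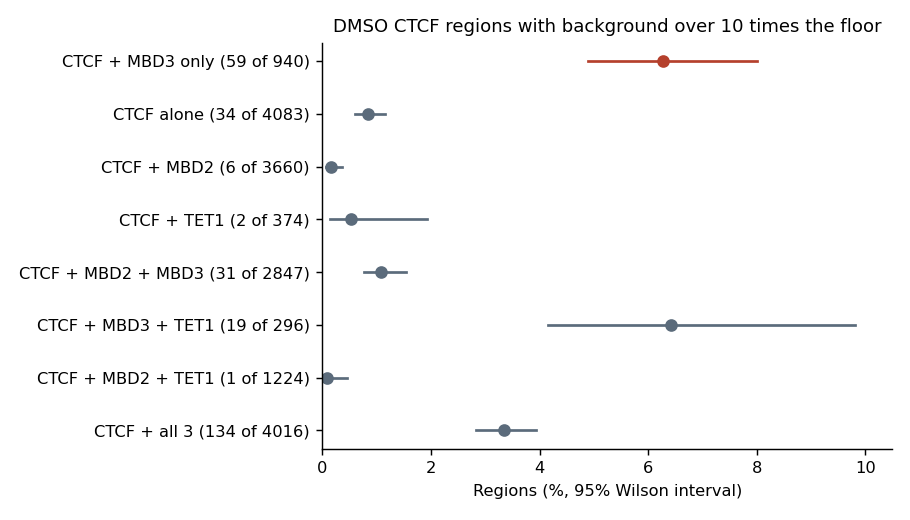
Share of DMSO CTCF regions (horizontal, %) whose local background exceeds 10 times the floor of the list, by class, with the count in parentheses and 95% Wilson intervals as bars. MBD3-only regions stand at 6.28%, against 6.42% with MBD3 and TET1, 1.09% with MBD2 and MBD3 and 0.164% with MBD2 as the one partner.

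At these 59 regions many fragments made a small enrichment. The CTCF fold ran from 1.13 to 2.54, with a median of 1.81, and the MBD3 fold from 1.13 to 2.27, with a median of 1.79. The CTCF pileup had a median of 466 fragments and a highest value of 3367. The median pileup was 33 (14 to 85) at the 824 regions of low background, where the median CTCF fold was 4.15. Summits of CTCF and MBD3 were a median of 5 bp apart at the 59, and an MBD2 region lay a median of 1636 bp away. CTCF −log10 q reached 286.6 at 1 of them, at these low folds.

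The 59 regions were gathered at few places. The unplaced contig chr9_gl000199_random held 16 of them, among 69 CTCF regions on it, within 134 kb and at CTCF folds of 1.69 to 2.54. Chromosome 2 held 13, of which 9 lay in chr2:91596754-92310200. All 8 on chromosome 16 lay in chr16:46386855-46427404, all 5 on chromosome 10 in chr10:42530586-42818246 and all 5 on chromosome X in chrX:61686606-61712703. These stretches were not MBD3-only throughout. The span on chromosome 16 held 22 CTCF regions, of which 8 were MBD3-only and 8 had all 3 partners, and that on chromosome X held 10, of which 5 were MBD3-only and 2 had all 3 partners. Outside chromosomes 1 to 22 and X there were 24 MBD3-only regions (2.55%, 1.72 to 3.77%), against 1.08% of all CTCF regions. Among regions of low background the shares were 0.485% and 0.507%. Across chromosomes 1 to 22 and X, the share of CTCF regions that were MBD3-only ran from 3.96% on chromosome 15 to 7.26% on chromosome 9. What these stretches contain was not analysed here.

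Few MBD3-only regions were listed again under either treatment. Of the 940, 52 (5.53%, 4.24 to 7.18%) overlapped a region of at least 1 of the 8 treated lists, against 5.70% of all 17440 CTCF regions, and 888 overlapped none. In the BPK25 lists, 17 met a CTCF region (1.81%, 1.13 to 2.88%), against 1.27% of all CTCF regions. For MBD3 under BPK25 the count was 16 (1.70%, 1.05 to 2.75%), against 1.10%. For MBD2 it was 13 (1.38%, 0.810 to 2.35%), against 1.42%. For TET1 it was 16 (1.70%, 1.05 to 2.75%), against 3.84%. Under IAA, 7 met a CTCF region (0.745%, 0.361 to 1.53%), against 0.952% of all CTCF regions. MBD2 met 4 (0.426%) against 0.631%, MBD3 met 1 (0.106%, 0.0188 to 0.600%) against 0.442%, and TET1 met 2 (0.213%) against 0.459%. Each interval but that of TET1 under BPK25 holds the share over all CTCF regions. The rule left out every region with TET1 in DMSO, whereas the shares over all CTCF regions include them. Over the 11530 CTCF regions with no TET1 in DMSO the share in BPK25 TET1 was 1.65%, within the interval of the MBD3-only regions. Their 0.0607% in IAA MBD3 also lay within it. In the other lists their shares lay under the intervals of the MBD3-only regions. These were 0.538% in BPK25 CTCF, 0.390% in BPK25 MBD2 and 0.425% in BPK25 MBD3. Under IAA they were 0.225% in CTCF, 0.121% in MBD2 and 0.0434% in TET1. The BPK25 and IAA results start from the same DMSO lists.

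The regions listed again were mostly those of raised background. Of the 52, 29 had a background over 3 times the floor. They were 25.0% (18.0 to 33.6%) of the 116 such regions, against 21.7% of all CTCF regions of raised background. The latter include regions with all 3 partners, which stood at 39.3%. At raised background the share was 10.6% (8.87 to 12.7%) with no TET1 in DMSO and 7.34% (4.75 to 11.2%) without a partner. Both intervals lie under that of the MBD3-only regions. With MBD2 and MBD3 the share was 14.5% (10.9 to 19.1%), with an interval that overlaps that of the MBD3-only regions. At low background 23 of 824 were listed again (2.79%, 1.87 to 4.15%), against 3.80% of all CTCF regions of low background. The CTCF regions of low background without a partner stood at 0.968% (0.703 to 1.33%) and those with MBD2 and MBD3 at 3.56% (2.91 to 4.35%). At low background, a CTCF region was listed under BPK25 at 3 of the 824 (0.364%, 0.124 to 1.06%), against 0.314%, and an MBD3 region at 2 (0.243%), against 0.218%. An MBD2 region was listed under BPK25 at 7 (0.850%, 0.412 to 1.74%), against 0.776%. Under IAA a CTCF region was listed at 1 (0.121%), against 0.263%, and a TET1 region at 1 (0.121%), against 0.0128%. The 10513 regions of low background with no TET1 in DMSO gave 0.114% in BPK25 CTCF, 0.295% in BPK25 MBD2 and 0.00951% in IAA TET1. These lie under the intervals of the MBD3-only regions, which are themselves part of the 10513. In IAA TET1 the 1 MBD3-only region was the only 1 listed among the 10513, so that comparison shows no difference from other regions. In BPK25 CTCF the 3 MBD3-only regions were among 12. Their shares of 0.0761% in BPK25 MBD3 and 0.105% in IAA CTCF lie within them. Under IAA 0 of 824 had an MBD2 region and 0 of 824 an MBD3 region, which allows a share of up to 0.364% in each, against 0.00641% and 0.0128% of all CTCF regions of low background.

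**Figure D5:**
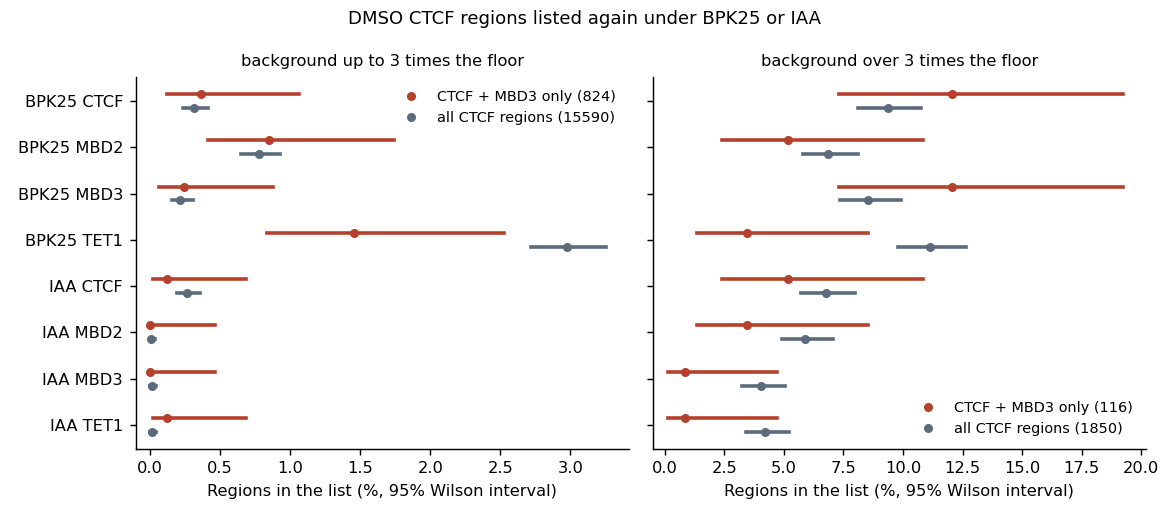
Share of DMSO CTCF regions (horizontal, %) that overlap a region of each BPK25 or IAA list, for MBD3-only regions and all CTCF regions, split at a local background of 3 times the floor, with 95% Wilson intervals as bars. At low background all shares of the MBD3-only regions lie under 2%, and TET1 under BPK25 is at 1.46% against 2.98% of all CTCF regions, which include those with TET1 in DMSO that the rule left out.

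The treated lists had lower floors than the DMSO lists. The floor was 0.256 fragments in the BPK25 CTCF list and 0.937 in the IAA CTCF list, against 4.35 in the DMSO CTCF list, which is 5.89% and 21.6% of it. The MBD3 floor under BPK25 was 7.92% of that in DMSO. The floor is the lowest recovered background and not a read total, and its part in the loss of listed regions was not tested.

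TET1 under BPK25 gave 16 of the regions listed again, none of which had TET1 in DMSO by the rule. Their BPK25 TET1 fold ran from 2.66 to 11.1, with a median of 4.77, and their pileup from 9 to 45 fragments, with a median of 11.5. The nearest DMSO TET1 region to any of them was 5111 bp away, and 1 lay on a contig with none. At low background the share was 12 of 824 (1.46%, 0.835 to 2.53%), against 2.98% of all CTCF regions of low background and 1.40% (1.19 to 1.64%) of the 10513 with no TET1 in DMSO. It was 2.97% (2.38 to 3.70%) at regions with MBD2 and MBD3, 1.21% (0.890 to 1.64%) at regions with MBD2 as the one partner and 0.497% (0.318 to 0.775%) at regions without a partner. The interval of the MBD3-only regions lies above that of the regions without a partner and overlaps those of both other classes. With a −log10 q of 5 or more in every list, the share over all MBD3-only regions was 0.275%, in place of 1.70%. Within quartiles of CTCF fold, low to high, counts were taken at low background in every class. The MBD3-only counts were 3 of 219, 7 of 241, 0 of 236, which allows a share of up to 1.27%, and 2 of 128. The regions with MBD2 and MBD3 gave 9 of 316, 14 of 618, 19 of 806 and 34 of 818, and those without a partner 8 of 1636, 7 of 1104, 3 of 776 and 1 of 308.

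The clearest of these was chr4:178476198-178476444, with a BPK25 TET1 fold of 11.1 and a pileup of 26 fragments. This region had a DMSO CTCF background of 14.6 fragments, over 3 times the floor. In DMSO it had a CTCF fold of 5.77, with a pileup of 89, and an MBD3 fold of 3.71, and its nearest TET1 region in DMSO was 305 kb away. At chr9:36450202-36450460 and at chr11:100726313-100726512 the BPK25 TET1 fold was 5.84 with a pileup of 12 in each. Their CTCF folds in DMSO were 5.99 and 5.33.

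Some regions of low background had a CTCF, MBD3 or MBD2 region under BPK25. At chr3:174202296-174202695 the BPK25 CTCF fold was 7.09 with a pileup of 8 fragments, against a DMSO CTCF fold of 5.11 with a pileup of 34. The BPK25 MBD3 fold there was 7.14 with a pileup of 9, against a DMSO MBD3 fold of 4.33 with a pileup of 34. The higher folds of the treated list come with fewer fragments, so folds were not compared between treatments. At chr5:121528659-121528900 BPK25 CTCF had a pileup of 8, against 37 in DMSO. At chr1:147994248-147994445, the region of highest MBD3 fold, the BPK25 MBD2 list held a region of fold 8.03 and pileup 22, where DMSO had listed no MBD2. The widest MBD3-only region, chr5:180515922-180516974, spans 1053 bp with 4 CTCF summits, and BPK25 listed CTCF there with a pileup of 6 and MBD2 with a pileup of 11. Under IAA, 1 region of low background had TET1, at chr5:1170457-1170769 with a fold of 5.93 and a pileup of 16, against a DMSO CTCF fold of 3.80.

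Among the 59 regions with a background over 10 times the floor, 24 (40.7%, 29.1 to 53.4%) were listed in a treated list, against 68.2% of the 286 CTCF regions with such a background. BPK25 CTCF met 13 of them (22.03%, 13.4 to 34.1%), against 42.7%, and BPK25 MBD3 met 14 (23.7%, 14.7 to 36.0%), against 44.4%. IAA CTCF met 6 (10.2%, 4.74 to 20.5%), against 36.4%. In each case the interval of the MBD3-only regions lies under the share over all such regions, of which 134 had all 3 partners and were listed at 92.5% in any list. At the 34 regions of such background without a partner, 41.2% were in a treated list. Of these 34, 38.2% were in BPK25 CTCF, 23.5% in BPK25 MBD3 and 2.94% in IAA CTCF. Each interval overlaps that of the MBD3-only regions. At the 31 with MBD2 and MBD3, 51.6% (34.8 to 68.0%) were in BPK25 CTCF, with an interval above that of the MBD3-only regions. Their 48.4% (32.0 to 65.2%) in BPK25 MBD3 and 22.6% (11.4 to 39.8%) in IAA CTCF have intervals that overlap those of the MBD3-only regions. The region in the most treated lists, chr11:51586809-51587033, had a BPK25 CTCF pileup of 279 fragments and an IAA CTCF pileup of 765, against a DMSO CTCF pileup of 2788. Its folds were 2.20 under BPK25 and 1.95 under IAA, against 1.76 in DMSO. It was chosen after its values were seen.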

How the data were processed

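ChIP-seq of HEK293T cells covered 12 combinations of treatment and antibody, and the analysis starts from the deposited narrowPeak lists, 1 for each, called on replicates 1 to 3 together. MACS2 2.1.2, Bowtie2 2.3.4, deepTools 3.5.0, bedtools 2.25.0, SAMtools 1.9, FastQC 0.11.7 and the build hg19 are named, without their settings, per the submitters' processing notes. The deposited lists give for each peak a fold enrichment (a linear ratio), the −log10 of its p-value and of its q-value, a display score, which was not used, and the offset of its summit, all as the authors' caller wrote them.

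Sub-peaks with the same start and end were merged into 1 region, which took the values of the sub-peak with the largest −log10 p. Overlap meant 1 bp or more. The whole pileup and the local background were solved from fold, read as pileup plus 1 over background plus 1, and from −log10 p, read as a Poisson upper tail; all 53743 regions fitted within 0.02%. Shares carry 95% Wilson intervals, and a count of 0 was read as up to 3 regions of the total. No p-value was computed, since each group has 1 list. The sources used here do not say whether replicates were separate cultures, and library depth is unknown because the lists hold no read totals. The recovery and the overlap classes were tested on simulated data.

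The members, lists and comparisons were chosen with earlier results of these data known. The text names regions of chromosomes 1 to 22 and X whose CTCF −log10 q is 5 or more: the 6 of highest CTCF fold, the 6 of highest MBD3 fold, up to 12 of those in a treated list by CTCF fold, and the 2 of smallest overlap beside 2 regions just outside. Regions of high background, the IAA TET1 region, the regions with no TET1 in DMSO and the split of summits by MBD3 fold were added after the data were seen. Coordinates are hg19 and count from 1. Sequence, genes and motifs at the regions were not analysed here. Python 3.11.15, numpy 2.4.6, pandas 2.3.3, SciPy 1.17.1 and matplotlib 3.10.9 were used.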

Additional observations from a re-analysis of the deposited data

How the results depend on the processing

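With an overlap of 50% of the shorter region there were 939 regions, 931 of them among the 940, and none of the other values left its interval. With summits within 150 bp there were 951, of which 906 were among the 940, and the share within 50 bp was 89.1%, which that rule favours. A −log10 q of 5 or more in every list left 726 regions, 567 of them among the 940 and 159 new, since MBD2 and TET1 regions drop out too. They were 4.86% of CTCF regions, with a median CTCF fold of 4.32, a median MBD3 fold of 3.83, a median summit distance of 13 bp and 96.0% within 50 bp. BPK25 TET1 then met 0.275%, IAA MBD3 0% (up to 0.413%) and any treated list 3.86%. Requiring a fold of 5 in all lists left 149 regions, of which 43 were among the 940, so the identity of the set depends on the fold required. They were 2.72% of CTCF regions, with medians of 5.92 for CTCF fold, 5.36 for MBD3 fold and 11 bp for summit distance, and 99.3% within 50 bp. Under that rule BPK25 MBD2 met 0.671% and BPK25 MBD3 and all 4 IAA lists 0 of 149, up to 2.01%. On chromosomes 1 to 22 and X, 916 regions gave 0.873% in BPK25 CTCF, 0.983% in BPK25 MBD3 and 0% in IAA MBD3 (up to 0.328%). With a background up to 3 times the floor in every list, 837 regions had median folds of 4.17 for CTCF and 3.60 for MBD3. Their shares were 0.358% in BPK25 CTCF, 0.239% in BPK25 MBD3, 0.239% in IAA CTCF, 0% in IAA MBD2 and MBD3 (up to 0.358%) and 3.23% in any list. With no MBD2 or TET1 region within 1 kb, 894 regions gave 1.01% in BPK25 MBD3 and 0% in IAA MBD3 (up to 0.336%). Of 98 shares and medians recomputed under these 7 rules, 65 stayed within the interval of the value reported.

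No paired analysis was possible because each list pools replicates 1 to 3, and leaving out a replicate could not be run for the same reason. Alternatives on gene annotation and on sequence were not run.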
